A study of Mus musculus with 20 samples.

Results

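The renin-angiotensin genes described here are 8 genes, found by symbol in the gene annotation (GENCODE M21) among the 55487 gene identifiers of the count files. They are the precursor Agt, the renin receptor Atp6ap2, the peptidases Ace, Enpep, Mme and Lnpep, and the receptors Agtr1a and Agtr2. The expression was measured in granulosa cells (GCs) of 20 adult female mice, 5 for each combination of line and stage of the estrous cycle. FL1 is a mouse line selected over many generations for high fertility, and ctrl is the unselected line bred from the same founder population. Neither the labels nor the methods name an engineered allele or a treatment. The 4 groups were ctrl in estrus, FL1 in estrus, ctrl in diestrus and FL1 in diestrus, and each sample holds GCs of the largest follicles of 1 mouse. The questions were whether these genes differ between the lines at either stage, and whether they differ between the stages within a line.

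Angiotensinogen, the product of Agt, is a secreted protein from which renin cuts the inactive angiotensin I. Angiotensin converting enzyme, encoded by Ace, then forms angiotensin II, which acts on the receptors encoded by Agtr1a and Agtr2, while aminopeptidases and neprilysin shorten or degrade the peptides. Besides the circulating system, which regulates blood pressure and salt balance, the ovary has a local one, and prorenin and angiotensin II are known components of follicular fluid.

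The deposited libraries held between 5446576 and 8257041 reads on genes, which were 48.9 to 58.4% of all reads. The libraries were made from the 3′ ends of transcripts, so that CPM values (the counts of a gene scaled to the size of the library after TMM normalization) were compared between genes without division by transcript length. GC markers had a high sum in all samples, 5885 to 15409 CPM over 10 genes, of which Amh was at 0 in 6 samples. The 5 theca markers summed to 60.9 to 319 CPM, of which Insl3 never exceeded 3 counts while Cyp17a1 was counted in every sample. In bulk samples fewer cells of a type and less RNA per cell cannot be told apart.

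The sequences below show what these genes encode, namely the peptide cut from Agt and the active sites of the enzymes that act on it. All were read from the GENCODE M21 transcripts on GRCm38. The codons of angiotensin I lie in exon 2 of 5 of Agt (chr8:124564450-124564479, minus strand), at codons 30 to 39 of 482 in the longest annotated coding sequence. Capitals mark the part that remains in angiotensin II, and the lower-case end encodes the residues that Ace removes.
Agt, angiotensin I: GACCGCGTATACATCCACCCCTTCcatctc

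The peptidases among these genes bind zinc through a short coding motif, in which capitals mark the codons of the invariant histidine, glutamate and histidine. Ace holds it in exon 8 (chr11:105972910-105972924) and again in exon 20 of 25 (chr11:105985094-105985108), that is in each of its 2 homologous catalytic domains. Enpep has it in exon 5 of 20 (chr3:129309772-129309786), Mme in exon 18 of 23 (chr3:63362021-63362035) and Lnpep in exon 6 of 18 (chr17:17570877-17570891). Lta4h, an enzyme of leukotriene synthesis from the same superfamily that is not one of the 8 genes, has it in exon 10 of 19 (chr10:93471305-93471319) and is shown because its level comes up below.
Ace, first domain: CACGAGatgggcCAC
Ace, second domain: CACGAAatgggcCAC
Enpep: CACGAActtgtaCAC
Mme: CATGAAatcacaCAT
Lnpep: CACGAActggcaCAT
Lta4h: CATGAAatatctCAT

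The 8 genes fell into 2 classes by level. Agt, Atp6ap2 and Lnpep were counted in all 20 samples, and Mme in 19 of 20. Ace, Enpep, Agtr1a and Agtr2 were at 0 in 8, 5, 13 and 6 of 20 samples, and their highest counts were 68, 50, 40 and 56. In these 4 genes single samples with 20 or more reads stood beside samples with none, so that most groups contained both. Genes with a mean of 5 to 20 counts had a median of 8 samples at 0 (quartiles 5 and 11, 3438 genes), so that Ace, Enpep and Agtr2 lay between the quartiles and Agtr1a above them.

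**Figure D1:**
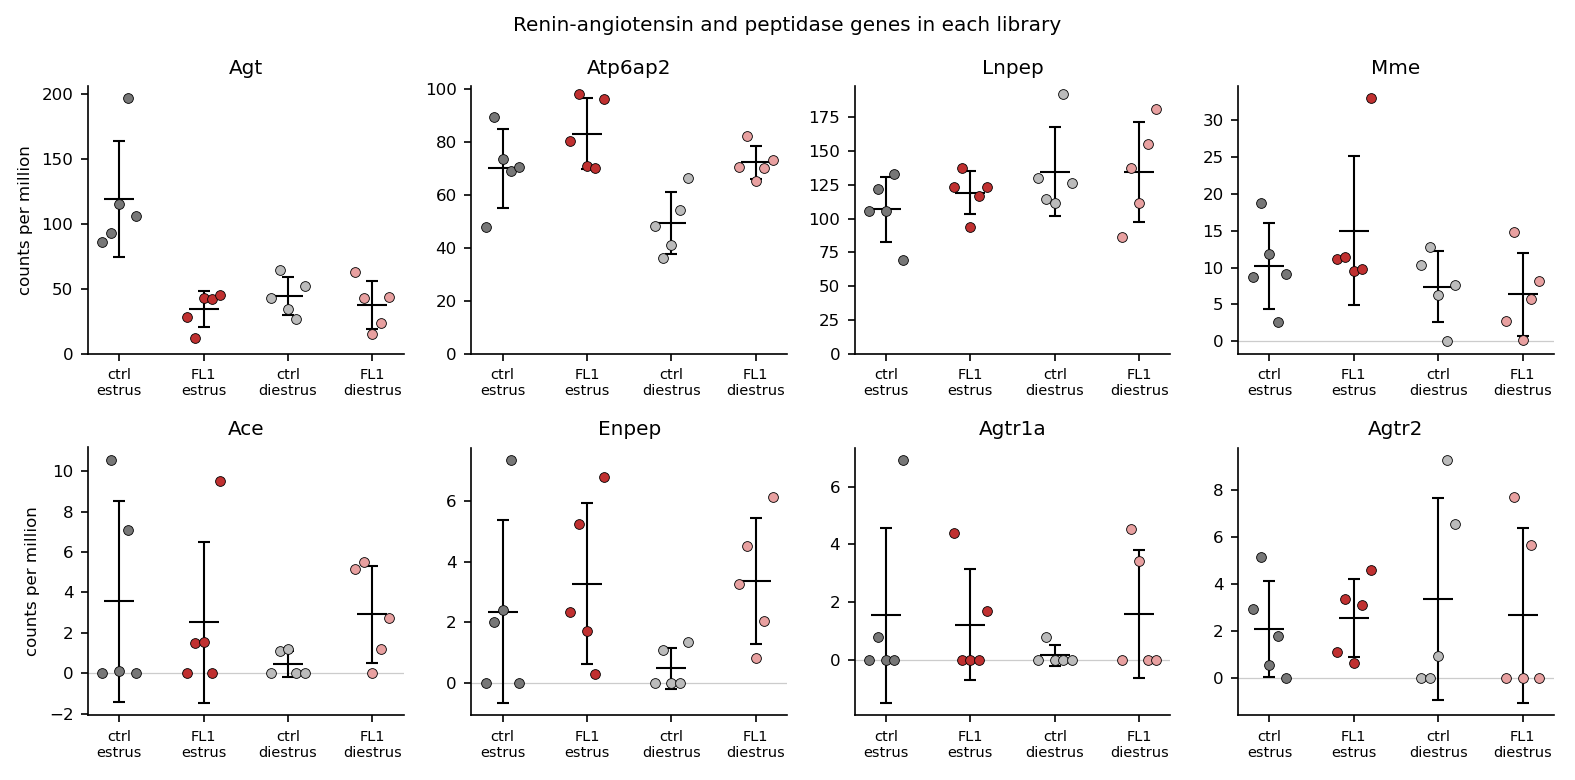
CPM (y axis, linear, separate scale for each gene) of the 8 genes in ctrl and FL1 mice in estrus and diestrus. Points are single mice (5 per group, left to right in the order of the replicate number) and bars are mean ± SD. The 5 ctrl samples in estrus were above all 15 other samples for Agt, while in the lower row many samples of Ace, Enpep, Agtr1a and Agtr2 were at 0.

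A gene was called where edgeR's quasi-likelihood test gave an adjusted p of 0.05 or less, and genes with too few counts in a comparison were not tested in it. Of the 8 genes, 1 of 7 tested was called between the lines in estrus (0.769% of all tested genes) and 0 of 4 in diestrus (0.248%). Between the stages 1 of 5 was called in ctrl (1.36%) and 0 of 7 in FL1 (0.221%). In each case the called gene was Agt, which was also the only one whose samples did not overlap. All tested genes without overlap made up 3.56% between the lines in estrus, 1.58% in diestrus, 3.66% between the stages in ctrl and 2.42% in FL1. In the comparisons without a call, 1 of the genes had an unadjusted p under 0.05 between the lines in diestrus (Atp6ap2) and 0 between the stages in FL1, and DESeq2 called 0 in both.

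Agt was highest in ctrl mice in estrus and low in all 3 other groups. The ctrl samples in estrus had 86.3, 92.8, 114.97, 197.1 and 106.2 CPM (replicates 1 to 5), and the FL1 samples in estrus had 27.9, 12.3, 42.8, 42.1 and 44.9 CPM. In diestrus, 43.1, 64.7, 34.4, 26.8 and 51.9 CPM were counted in ctrl and 63.0, 42.6, 14.9, 23.8 and 43.3 CPM in FL1. No sample of the other groups reached the lowest ctrl sample in estrus, whereas the ranges of the 3 low groups overlapped in part.

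The group means were 119 ± 44.8 CPM in ctrl in estrus, 34.0 ± 13.9 CPM in FL1 in estrus, 44.2 ± 14.8 CPM in ctrl in diestrus and 37.5 ± 18.8 CPM in FL1 in diestrus (SD, n = 5 each). In estrus Agt was lower in FL1 by edgeR's quasi-likelihood test with Benjamini-Hochberg adjustment (log2 fold change -1.82, SE 0.32, adjusted p = 0.00965). In diestrus the lines differed by less than the spread between mice (log2 fold change -0.23, SE 0.35, adjusted p = 0.9998). Within ctrl, Agt fell by 1.44 on the log2 scale from estrus to diestrus (SE 0.28, adjusted p = 0.0161), and it was lower in 5 of 5 diestrus samples than in any estrus sample. Within FL1 the stages did not differ detectably (log2 fold change 0.13, SE 0.39, adjusted p = 0.968).

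Both calls share the 5 ctrl samples in estrus and are not independent of each other. Leaving out 1 sample at a time kept both calls in 10 of 10 fits each, with log2 fold changes between -1.93 and -1.56 for the lines in estrus and between -1.61 and -1.18 for the stages in ctrl. The difference between the line effects of the 2 stages had a log2 value of 1.58 (SE 0.50, unadjusted p = 0.00374) and did not pass the adjustment (adjusted p = 0.933). A dependence of the line effect of Agt on the stage is therefore not shown. No gene passed in this test of the interaction (0% of 14938, edgeR), while 710 had an unadjusted p under 0.05 and DESeq2 called 1.

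Summed levels of markers of other cell types are given beside the Agt values of both comparisons. In estrus the summed level of the luteal markers (6 genes, all counted in every sample) was 347 to 1609 CPM in ctrl and 3762 to 9156 CPM in FL1. Lhcgr, Akr1c18 and Prlr were called higher in FL1, and Cyp11a1, Ptgfr and Sfrp4 were not called. The paper reports Lhcgr and Prlr as expressed in GCs, so this list does not set luteal cells apart from GCs. Surface epithelium markers (5 genes) summed to 3.21 to 24.6 CPM in ctrl and 24.4 to 60.4 CPM in FL1 in estrus. Median sums there were also higher in FL1 for macrophage and endothelial markers and lower for theca and stromal markers. No marker outside the luteal list was called between the lines in estrus. From estrus to diestrus in ctrl the stromal markers (5 genes) went from 257 to 569 CPM to 32.2 to 272 CPM. The macrophage markers (7 genes) went from 18.8 to 40.2 CPM to 1.79 to 12.3 CPM, but no gene of these 2 lists was called in that comparison. Markers that were called between the stages in ctrl were Cyp17a1 of the theca list (mean 10.6 CPM in estrus and 95.6 CPM in diestrus, log2 fold change 3.16, adjusted p = 0.00690) and Fshr of the GC list (45.6 and 149.9 CPM, log2 fold change 1.71, adjusted p = 0.00155). The part of these cells in the Agt values was not tested. FL1 in estrus had 312 to 681 CPM of stromal markers.

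**Figure D2:**
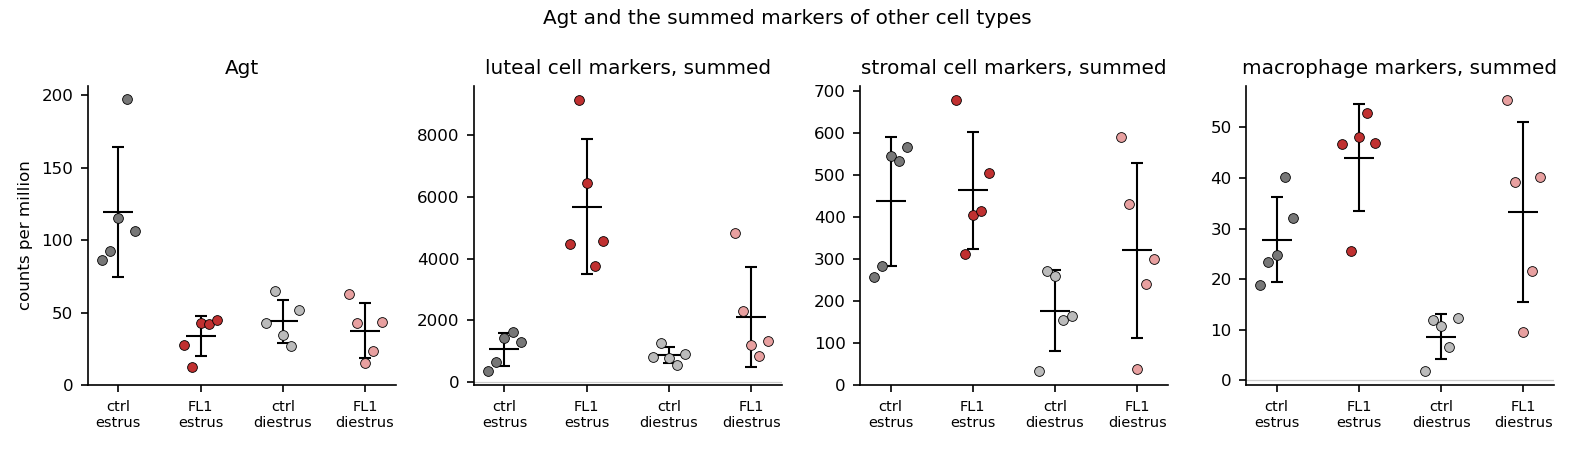
Agt and the summed levels of the luteal, stromal and macrophage markers in each mouse (y axes, CPM, linear). Points are mice, bars are mean ± SD (n = 5 per group). FL1 in estrus had 3762 to 9156 CPM of luteal markers against 347 to 1609 CPM in ctrl, and ctrl in diestrus had the lowest macrophage sums (1.79 to 12.3 CPM).

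Agt lies on chromosome 8 (124556534 to 124569706, minus strand, GRCm38). The 250 bases before its start (RefSeq, GRCm38.p6, chr8:124569707-124569956, minus strand) are printed together with those of the renin gene Ren1 (chr1:133350424-133350673, plus strand), because both genes were higher in estrus than in diestrus in ctrl. The only motif searched was TATAAA, shown in capitals. It begins 30 bases before the RefSeq start of Agt and 29 bases before that of Ren1. The GENCODE M21 start of Ren1 (133350510) lies within the printed window, so that TATAAA lies inside Ren1 by that annotation. TATAAA occurs on the strand of the gene in 7.59% of 32851 promoter windows of the same length, on either strand in 12.4%, and between 50 and 11 bases before the start in 2.4%.
Agt, upstream: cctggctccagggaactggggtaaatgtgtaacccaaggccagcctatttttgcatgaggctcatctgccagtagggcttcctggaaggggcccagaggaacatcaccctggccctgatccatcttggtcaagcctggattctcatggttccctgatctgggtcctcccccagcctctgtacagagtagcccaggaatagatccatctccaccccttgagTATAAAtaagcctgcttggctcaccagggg
Ren1, upstream: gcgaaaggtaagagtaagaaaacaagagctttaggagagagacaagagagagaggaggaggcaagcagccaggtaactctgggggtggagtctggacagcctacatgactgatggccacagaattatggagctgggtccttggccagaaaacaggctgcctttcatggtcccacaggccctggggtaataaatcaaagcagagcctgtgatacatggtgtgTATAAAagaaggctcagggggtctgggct

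Of the genes whose start lies within 250 kb of that of Agt, 5 were tested in estrus and 1 was called. This was Pgbd5, a gene derived from a transposase, whose start lies 130 kb from that of Agt (124369049 to 124439658). Pgbd5 had 144, 208, 193, 259 and 123 CPM in ctrl in estrus and 64.8, 53.6, 96.1, 50.2 and 80.3 CPM in FL1 in estrus. The groups did not overlap, and the log2 fold change was -1.43 (SE 0.24, adjusted p = 0.00710).

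Pgbd5, like Agt, had its highest mean in ctrl in estrus, while the order of the other groups differed. In ctrl in diestrus its mean was 53.9 ± 32.0 CPM, and in FL1 in diestrus 49.5 ± 20.1 CPM (SD, n = 5). It fell by 1.79 on the log2 scale from estrus to diestrus in ctrl (SE 0.33, adjusted p = 0.0108), whereas the values were -0.12 for the lines in diestrus (SE 0.37, adjusted p = 0.9998) and -0.49 for the stages in FL1 (SE 0.30, adjusted p = 0.684). Like Agt it did not pass the test of the interaction (log2 value 1.30, SE 0.45, unadjusted p = 0.00729, adjusted p = 0.933).

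Over the 20 samples Pgbd5 correlated with Agt at r = 0.67 and ranked 47th of 14937 genes, but within the groups the correlation was 0.22. The other 4 neighbours were not called. Cog2, the nearest (start at 48.9 kb), had a log2 fold change of -0.61 in estrus (SE 0.28, adjusted p = 0.434). The values of 2310022B05Rik (0.31, SE 0.26, adjusted p = 0.753), Ttc13 (0.40, SE 0.30, adjusted p = 0.724) and Arv1 (-0.39, SE 0.68, adjusted p = 0.923) went in both directions.

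The genes with a profile most like that of Agt over the 20 samples (Pearson's r of log2 CPM) were Edem2 (r = 0.86), Ccdc80 (r = 0.81) and Jpt2 (r = 0.79). Edem2, which takes part in the degradation of misfolded glycoproteins, had mean levels of 167 CPM in ctrl in estrus and 102.6 to 108.3 CPM in the other groups. Ccdc80, which encodes a protein of the extracellular matrix, had 60.0 CPM in ctrl in estrus and 21.03 to 30.2 CPM elsewhere. None of the 3 was called between the lines or the stages (lowest adjusted p = 0.0665, Ccdc80 between the lines in estrus). Within the groups the correlations were 0.73, 0.60 and 0.50, so that these genes also varied with Agt among mice of 1 group. The samples share library preparation and depth, and these coefficients are descriptions.

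Renin itself is not among the 8 genes but is the enzyme that acts first on the product of Agt. Ren1 had 4.67, 3.73, 6.88, 14.9 and 13.9 CPM in ctrl in estrus and 8.97, 4.51, 6.25, 5.21 and 3.40 CPM in FL1 in estrus. In diestrus it was at 0 counts in all 5 ctrl samples and in 4 of 5 FL1 samples, and FL1 replicate 2 had 8 counts (1.10 CPM). Ren1 was thus detected in every mouse in estrus and in 1 of 10 in diestrus.

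In ctrl the fall from estrus to diestrus was called (adjusted p = 0.0109), and the level was at least 19.3-fold lower in diestrus when 3 counts are taken as the limit of each library. In FL1 the samples of the stages did not overlap either, but the log2 fold change of -4.52 (SE 1.37) did not pass in edgeR (adjusted p = 0.203). In DESeq2 it did (log2 fold change -4.63, adjusted p = 0.00769). With 1 sample left out the edgeR value in FL1 ranged from -8.20 to -4.23, and 0 of 10 fits called it. Ren1 was not called between the lines in estrus (log2 fold change -0.64, SE 0.66, adjusted p = 0.830), and the difference of the stage effects between the lines did not pass the adjustment (adjusted p = 0.982). Reads of the further renin gene Ren2, which some mouse strains carry and the reference genome lacks, could not be told apart from those of Ren1.

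Markers of other cell types are given beside Ren1 as well. Besides the stromal and macrophage sums above, the smooth muscle and pericyte markers (6 genes) summed to 256 to 862 CPM in ctrl in estrus and to 195 to 575 CPM in ctrl in diestrus, with overlap and with no gene called. In FL1 they summed to 502 to 1227 CPM in estrus and to 74.6 to 1268 CPM in diestrus. The part of these cells in the Ren1 values was not tested.

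Atp6ap2, the (pro)renin receptor and an accessory protein of the vacuolar proton pump, was evenly expressed. It had 47.8, 89.7, 73.7, 68.9 and 70.6 CPM in ctrl in estrus and 80.6, 98.2, 71.0, 70.2 and 96.2 CPM in FL1 in estrus. In diestrus it had 48.1, 36.2, 41.2, 54.5 and 66.4 CPM in ctrl and 70.5, 82.4, 65.5, 70.1 and 73.3 CPM in FL1. In diestrus 4 of 5 FL1 samples were above all ctrl samples, and the remaining one lay just below the highest ctrl sample.

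The difference between the lines in diestrus (log2 fold change 0.56, SE 0.21, unadjusted p = 0.0185) did not pass the adjustment (adjusted p = 0.728), nor did the one in estrus (log2 fold change 0.24, SE 0.21, adjusted p = 0.774). From estrus to diestrus in ctrl the log2 fold change was -0.52 (unadjusted p = 0.0402, adjusted p = 0.386). The proton pump has 15 further subunits on the list used here, of which 15 were tested in each comparison except that of the stages in FL1 (14). Of these 0 were called in any comparison by edgeR, and 3 had an unadjusted p under 0.05 between the lines in estrus. The gene most like Atp6ap2 was Slc7a8, an amino acid transporter (r = 0.83 over 20 samples, 0.62 within groups), which was called higher in FL1 in diestrus (mean 57.6 CPM in ctrl and 150.5 CPM in FL1, adjusted p = 0.00266).

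Lnpep, the insulin-regulated aminopeptidase that also cleaves oxytocin and vasopressin, was the most abundant of the peptidases. Its group means were 106.9 CPM in ctrl in estrus, 119 CPM in FL1 in estrus, 135 CPM in ctrl in diestrus and 134 CPM in FL1 in diestrus. It ranged from 69.0 to 192 CPM over the 20 samples, and all groups overlapped. The log2 fold changes lay between 0.00 and 0.32 in the 4 comparisons, and 0 of 4 were called. Dcun1d1, a regulator of cullin neddylation, was most like Lnpep (r = 0.85, within groups 0.82).

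Mme, which encodes neprilysin, was lower by an order of magnitude. It had 8.76, 18.8, 11.8, 2.66 and 9.19 CPM in ctrl in estrus and 11.2, 11.4, 9.54, 9.85 and 33.0 CPM in FL1 in estrus. In diestrus it had 10.4, 12.7, 6.29, 0 and 7.64 CPM in ctrl and 2.81, 14.8, 0.162, 5.81 and 8.21 CPM in FL1. In estrus 4 of 5 FL1 samples lay close together and replicate 5 was far above them. In diestrus each line had a sample with at most 1 count beside another with over 90 counts. None of the 4 comparisons was called, the largest value being a log2 fold change of -1.24 between the stages in FL1 (SE 0.72, adjusted p = 0.657). The genes most like Mme were Espl1 (r = 0.79), Tbx3 (r = 0.77) and Pappa (r = 0.76), a protease of insulin-like growth factor binding proteins.

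**Figure D3:**
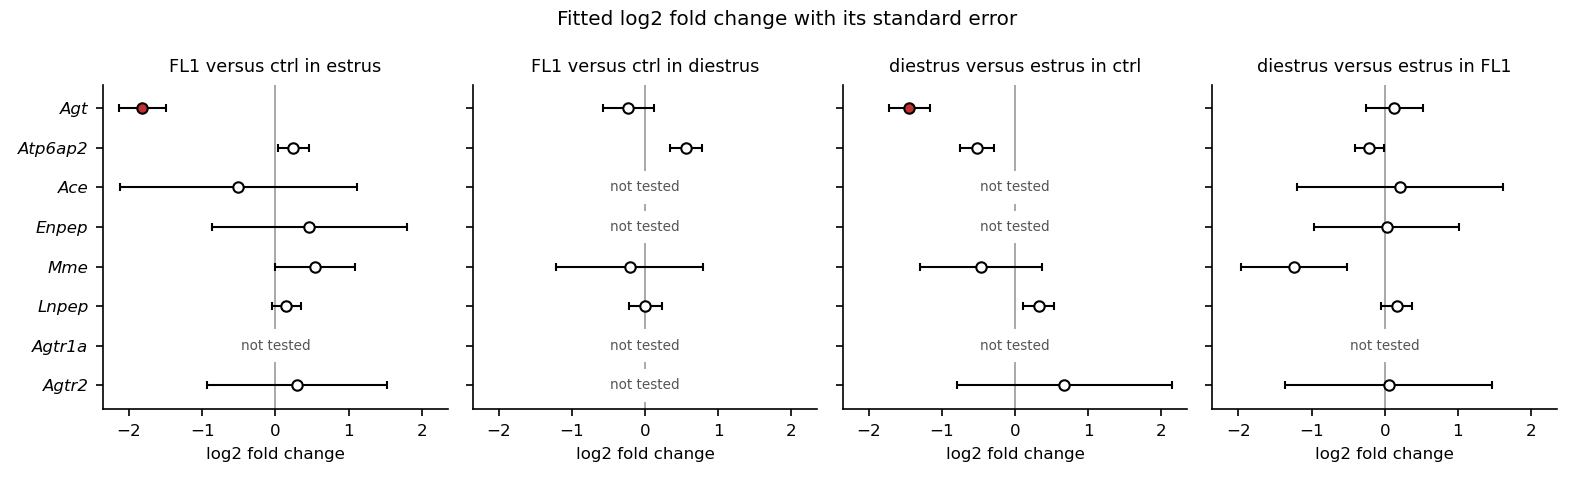
Fitted log2 fold changes (x axis) of the 8 genes with their standard errors in the 4 comparisons. Filled circles were called at an adjusted p of 0.05 or less and open circles were not. Only Agt was called, at -1.82 between the lines in estrus and -1.44 between the stages in ctrl, and the genes with low counts have wide errors or were too low to test.

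Ace and Enpep, the converting enzyme and the glutamyl aminopeptidase that acts on angiotensin II, were too low to compare in diestrus between the lines and in ctrl between the stages. In the other comparisons they passed the filter on low counts. Ace had 0, 68, 1, 48 and 0 counts in ctrl in estrus and 0, 12, 10, 0 and 56 counts in FL1 in estrus. In diestrus it had 0, 8, 9, 0 and 0 counts in ctrl and 33, 40, 0, 7 and 16 counts in FL1. Mice of the same group thus ranged from no reads to 68 in estrus and to 40 in diestrus.

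The log2 fold change of Ace was -0.50 between the lines in estrus, with an SE of 1.61 (adjusted p = 0.962). Between the stages in FL1 it was 0.21 with an SE of 1.41 (adjusted p = 0.989). Errors of this size would hide a change of several fold.

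Enpep had 0, 13, 21, 50 and 0 counts in ctrl in estrus and 15, 42, 11, 2 and 40 counts in FL1 in estrus. In diestrus it had 0, 8, 0, 0 and 10 counts in ctrl and 21, 33, 5, 12 and 36 counts in FL1. It was detected in 10 of 10 FL1 mice and in 5 of 10 ctrl mice, but the groups of each stage overlapped. The log2 fold change between the lines in estrus was 0.46 (SE 1.33, adjusted p = 0.957), and in diestrus Enpep did not pass the filter of the main test. Without the filter and in DESeq2 it was not called in diestrus either (DESeq2 adjusted p = 0.517). Ace and Enpep had the highest correlation among the 8 genes (r = 0.70 over 20 samples, 0.67 within groups), at counts at which many values are 0.

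The angiotensin II receptors were at the limit of detection. Agtr1a, the type 1 receptor, was too low to test in all 4 pairwise comparisons. It had reads in 7 of 20 samples, 2 each in ctrl in estrus, FL1 in estrus and FL1 in diestrus and 1 in ctrl in diestrus, with 5 to 40 counts where it was detected. Its paralog Agtr1b had 0 counts in 20 of 20 samples.

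Agtr2, the type 2 receptor, which is known from the granulosa cells of rodent follicles, was detected in 14 of 20 samples. It had 20, 33, 5, 12 and 0 counts in ctrl in estrus, 7, 27, 4, 22 and 27 counts in FL1 in estrus, 0, 0, 7, 51 and 49 counts in ctrl in diestrus and 0, 56, 0, 33 and 0 counts in FL1 in diestrus. All groups overlapped. The log2 fold changes were 0.29 between the lines in estrus (SE 1.23), 0.67 between the stages in ctrl (SE 1.47) and 0.05 between the stages in FL1 (SE 1.41), and between the lines in diestrus it was too low to test. Differences in the receptors were not detected at these low and uneven counts.

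The other genes of the angiotensin pathway were mostly not called either. The list holds 25 genes (further renin and cathepsin enzymes, other peptidases, receptors and receptor-associated proteins), 6 of which were at 0 in all samples. Of 13 tested between the lines in estrus 0 were called, of 11 in diestrus 0, of 13 between the stages in ctrl 1 (Ren1) and of 12 between the stages in FL1 0. The median log2 fold changes of this list were 0.04, 0.32, -0.37 and -0.16, beside 0.01, 0.01, 0.00 and 0.01 over all genes tested. In the comparison of the stages in ctrl 11 of 13 were below 0, beside 11 of 15 on the list of proton pump subunits. Between the lines in diestrus 9 of the 11 tested pathway genes were above 0.

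Among single genes of the pathway, Mas1 and Anpep were low, while Agtrap was counted in every sample. Mas1, a receptor of a shorter angiotensin peptide, had reads in 1 sample only (15 counts, FL1 in estrus replicate 2). Anpep, the alanyl aminopeptidase, had 0 to 66 counts and was not called where it was tested. Agtrap, which binds the type 1 receptor, had group means of 33.8 and 43.2 CPM in estrus (ctrl and FL1) and 26.1 and 18.8 CPM in diestrus. The stages did not overlap in FL1 (log2 fold change -1.21, SE 0.27, adjusted p = 0.0739), but its transcript end shares a repeat with many other genes, and its counts are uncertain.

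Among 17 further peptidases of the families of Lnpep, Enpep, Ace and Mme (some, such as Anpep and Rnpep, are on the pathway list too), 10 were tested in estrus and 1 was called between the lines. This was Lta4h, with 218, 270, 279, 183 and 199 CPM in ctrl in estrus and 88.4, 90.8, 160, 45.9 and 114.1 CPM in FL1 in estrus. No FL1 sample reached the lowest ctrl sample, and the log2 fold change was -1.21 (SE 0.26, adjusted p = 0.0357). The call held in 4 of 10 fits that left out 1 sample (adjusted p from 0.0135 to 0.112). It was lost without ctrl replicate 1, 2 or 3 and without FL1 replicate 1, 2 or 5.

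In diestrus Lta4h had 143 to 208 CPM in ctrl and 105.1 to 228 CPM in FL1 and was not called (log2 fold change -0.16, SE 0.22, adjusted p = 0.9998). Rnpep, an aminopeptidase closely related to Lta4h and named here after its values were seen, had 72.0 CPM in ctrl and 34.8 CPM in FL1 in estrus without overlap, and did not pass the adjustment (log2 fold change -1.05, SE 0.28, adjusted p = 0.0944). An annotated transcript end of Rnpep shares the repeat given above for Agtrap, so that its counts are uncertain as well. The other comparisons called 0 genes of this list by edgeR, with 1 gene at an unadjusted p under 0.05 between the lines in diestrus, 4 between the stages in ctrl and 3 between the stages in FL1.

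**Figure D4:**
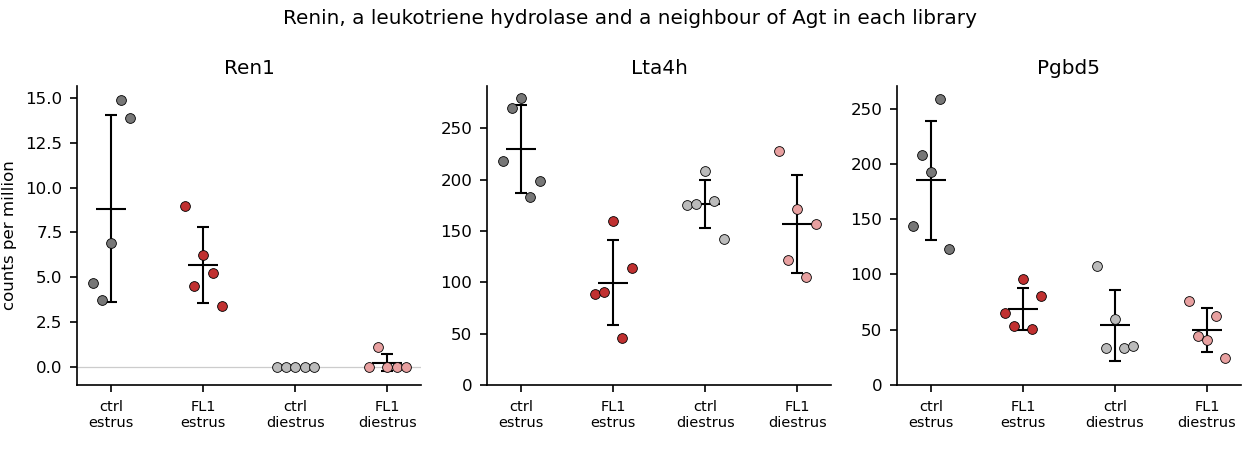
CPM (y axes, linear) of Ren1, Lta4h and Pgbd5 in each mouse, with mean ± SD (n = 5 per group). Ren1 was counted in all 10 mice in estrus and in 1 of 10 in diestrus. Lta4h was lower in FL1 than in ctrl in estrus, and Pgbd5 was highest in ctrl in estrus.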

How the data were processed

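Granulosa cells of 20 mice were sequenced from the 3′ ends of their transcripts, and the authors deposited raw counts of reads per Ensembl gene for each sample. The reads were trimmed and aligned to GRCm38 with STAR before deposit, per the labels and the methods of the study. The strand setting of the counting is not given in the sources used here. The reads carry no molecular identifiers and are not independent molecules. Positions are from GENCODE M21 on GRCm38, and promoter sequences from RefSeq (GRCm38.p6). Groups and replicate numbers are from the sample labels.

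Genes were kept by edgeR's filter (minimum count 10, minimum total 15, minimum share 0.7) in each comparison. The 10 samples of a comparison, or all 20 for the interaction of line and stage, were scaled by TMM and compared by the quasi-likelihood F test of edgeR 4.0.16 in R 4.3.3 with Benjamini-Hochberg adjustment over all tested genes, and a gene was called at an adjusted p of 0.05 or less. CPM use TMM over the 20 samples, and log2 CPM a prior count of 2. A fold change against a group at 0 is a bound at 3 counts per library. Copies of transcript ends were sought with BLAST 2.17.0 (last 500 nt, 90% identity over 100 nt). The code was tested on simulated data.

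Alternatives were DESeq2 1.42.0, RLE factors, no filter, a filter on a mean of 10 counts, robust estimation, the replicate number as a block, all samples in one fit, and each sample left out. The mice have no pairing in the labels, and the deviations of 20 same-numbered pairs correlated at -0.12 to 0.12, with 1 over 0.1, so that the numbers were not taken as pairs. Named are the 8 genes, list genes called in any comparison, Ren1, Mas1, Agtr1b, Agtrap and Anpep, the 3 genes most like a gene of the 8, and tested genes within 250 kb of one called between the lines. The genes and lists were chosen with earlier results of these data known. A result of this rule is not reported here.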

Additional observations from a re-analysis of the deposited data

Results flagged for a closer look

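In 7 of 44 groups of 5 samples that were checked, 1 sample stood apart by Dixon's criterion (gap over range above 0.71). Chance marks about 1 in 20 groups, and genes with many zeros are marked easily. For Agt, ctrl replicate 4 in estrus had 197.1 CPM, and the next sample had 114.97 CPM. Without it Agt was still called between the lines in estrus (log2 fold change -1.56, adjusted p = 0.0374) and between the stages in ctrl (-1.18, adjusted p = 0.0468). For Mme, FL1 replicate 5 in estrus had 32.99 CPM beside 11.4 CPM in the next sample, and for Ace the same mouse had 9.523 CPM beside 1.563 CPM. For Lnpep, ctrl replicate 4 in diestrus had 192 CPM beside 129.9 CPM.

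The remaining 3 cases concern genes at the limit of detection. Agtr1a had 6.939 CPM in ctrl replicate 5 in estrus beside 0.7771 CPM in the next sample. In ctrl in diestrus Agtr1a was counted in replicate 2 only (0.8052 CPM). Among the diestrus samples Ren1 was counted in FL1 replicate 2 only (1.099 CPM). The other samples of both lines in diestrus had no counts, and Ren1 was too low to test between the lines there.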

How the results depend on the processing

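The number of renin-angiotensin genes called stayed at 1, 0, 1, 0 and 0 in the 5 tests (lines in estrus, lines in diestrus, stages in ctrl, stages in FL1, interaction) under all alternatives run, and Agt kept both calls (highest adjusted p = 0.0481, stages in ctrl with the replicate block). Beyond the renin-angiotensin genes, only Ren1, Lta4h and Pgbd5 were followed singly through the alternatives. Among all these genes the replicate block changed 1 call, that of Ren1 between the stages in ctrl (-8.81, adjusted p = 0.0748). DESeq2 changed the call of Ren1 between the stages in FL1. The cause of these changes was not tested, and the calls of the other named genes were not followed. The counts over all genes moved more. DESeq2 called 425, 118, 526, 265 and 1 genes in the 5 tests, and no filter gave 373 and 6 in the first and last and 3.34, 1.99 and 10.3 times as many as the main test in the others, against 100, 32, 175, 29 and 0. The replicate block gave 58 between the lines in estrus and 13 in diestrus, and all 20 samples in one fit gave 65 between the stages in FL1. Leaving out 1 sample gave 66 to 130 genes between the lines in estrus and 21 to 32 in diestrus. Between the stages it gave 77 to 176 in ctrl and 13 to 178 in FL1, and the shares of all genes called move with these counts.

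Among the genes followed singly, signs changed only where nothing was called. With the replicate block the log2 fold changes were 0.0985 for Ace between the lines in estrus, -0.013 for Lnpep between the lines in diestrus, and -0.0695 in ctrl and -2.2998 in FL1 for Agtr2 between the stages. Lnpep between the lines in diestrus was -0.0041 without the filter and -0.0042 with all samples in one fit. With 1 sample left out, the values between the lines ranged in estrus from -2.1823 to 0.4721 for Ace and from -0.0149 to 0.9433 for Agtr2, and in diestrus from -0.7993 to 0.1012 for Mme, from -0.1253 to 0.1592 for Lnpep and from -0.3245 to 0.2927 for Pgbd5. Between the stages they ranged from -0.147 to 1.3353 for Agtr2 in ctrl, and in FL1 from -0.1436 to 0.335 for Agt, from -0.1459 to 1.893 for Ace, from -0.8638 to 0.3707 for Agtr2 and from -0.2981 to 0.4714 for Enpep. For the interaction they ranged from -1.5396 to 0.2015 for Agtr2 and from -0.2882 to 0.0028 for Lnpep. Low and uneven counts, at most 68 in any sample, limit the comparison of the receptors, Ace and Enpep.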
